A study of Mus musculus with 10 samples.

Results

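The genes described here are those that type I interferon turns on to make a cell hostile to a virus. They were chosen by name, from a list of 37 antiviral response genes of the mouse. Of these, 35 had a probe set whose annotation names that gene alone, out of 18128 genes with such a probe set. Where a gene had several, the one with the highest mean over the 10 arrays stood for it. Isg15, the interferon-induced ubiquitin-like modifier, and Ifi44 had none and were not analysed here.

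Synovium of the left hind leg was profiled on Affymetrix arrays, 1 per mouse. All 10 mice were DBA/1J males that arrived at 5 weeks of age and have a labelled age of 8 weeks. All had antibody-induced arthritis (CAIA): a monoclonal antibody to type II collagen (1 mg) was injected on day 8, lipopolysaccharide (25 µg) followed on day 11, and the mice were killed on day 12. The 5 vehicle mice took corn oil orally. The other 5 took maslinic acid, a triterpene of the olive, suspended in corn oil at a daily dose of 200 mg/kg. The 5 mice of each group were selected from larger groups by a criterion the sources used here do not give, and untreated mice were not analysed here. Both groups are therefore arthritic and have met lipopolysaccharide, so the comparison asks what maslinic acid adds and not what arthritis does.

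Type I interferons, the alpha and beta forms, are secreted by cells that sense foreign nucleic acid or bacterial products. They bind the receptor IFNAR, whose kinases JAK1 and TYK2 phosphorylate STAT proteins, STAT2 among them. With IRF9 they form the factor ISGF3, which binds the interferon-stimulated response element in front of antiviral genes. Lipopolysaccharide, which all of these mice received, reaches the same genes through TLR4, the adaptor TRIF (gene Ticam1) and IRF3, which switch on Ifnb1. An interferon signature is also known in blood and synovium of some people with rheumatoid arthritis.

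The deposited values look like log2 intensities in level, but 93.5% of probe sets differed by less than 0.001 between the highest and lowest of the 10 arrays, so differences are not given as fold changes. Each value is therefore given as a z-score, in SD of that gene over the 10 arrays, and each group difference as Hedges' g. This is the mean with maslinic acid minus the mean with vehicle, over the SD within groups and corrected for small samples. The arrays labelled vehicle replicates 3 and 5 stood apart. Their endothelial marker scores (mean z over 4 genes) were -1.26 and -1.77, while the other 8 arrays lay between -0.05 and 0.91. The neutrophil score was 1.31 in vehicle replicate 3 and at most 0.67 elsewhere. Its markers S100a8 and S100a9 took only 2 distinct values each, 1e-06 apart, so that score rests in part on rounding. Vehicle replicate 2 stood apart in other markers, with a skeletal muscle score of -1.94 (the other 9 arrays between -0.66 and 0.99) and an adipocyte score of -1.44. Synovial markers had mean levels of 11.55 (Prg4) and 11.32 (Col3a1). Skeletal muscle, which the protocol removes, was still represented, with levels of 13.26 for Acta1 and 12.6 for Myh4. In such bulk tissue, fewer cells of a type and less RNA per cell cannot be told apart.

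Promoters show what many of these genes share apart from their name. The core of the interferon-stimulated response element, which reads GAAA, any 2 bases and GAAA, was searched on both strands from 250 bases before to 50 bases after the RefSeq gene start (assembly GRCm38.p6). Of the 35 genes, 26 are in the promoter table, and 11 of these (42.3%) hold the core, against 3.99% of 27025 genes and 3.44% of 32851 promoters. The gamma-activated site TTCNNNGAA, known from genes that answer to interferon gamma, was found in 9 of the 26 (34.6%), against 9.55% of all genes and 8.3% of promoters. The lines below show the stretches upstream of the start that hold these letters, in capitals, for genes of different roles. Where the stretch reads TTTC, the core lies on the opposite strand.

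Ifit1: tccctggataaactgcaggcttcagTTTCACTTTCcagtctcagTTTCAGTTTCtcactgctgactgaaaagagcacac
Ifit3: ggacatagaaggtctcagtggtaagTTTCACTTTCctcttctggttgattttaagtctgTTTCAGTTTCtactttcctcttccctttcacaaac
Oas1a: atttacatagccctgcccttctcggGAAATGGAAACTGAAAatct
Bst2: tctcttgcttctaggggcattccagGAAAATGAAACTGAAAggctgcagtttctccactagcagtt
Rsad2: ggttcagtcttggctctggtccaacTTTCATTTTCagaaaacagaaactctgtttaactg
Irf1: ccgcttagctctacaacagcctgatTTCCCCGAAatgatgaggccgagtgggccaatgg

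Ifit1 (chr19:34640760-34640838, plus strand) and Ifit3 (chr19:34583348-34583441, plus strand) each hold the core at 2 places, which lie apart. In Oas1a (chr5:120907526-120907570, minus strand) and Bst2 (chr8:71537562-71537627, minus strand) the 2 places overlap and share a GAAA. Rsad2 (chr12:26456538-26456597, minus strand) holds 1. Irf1 (chr11:53769899-53769957, plus strand) is shown for the gamma-activated site, and does not hold the other core in this window. The core did not sort the genes by their group difference. The median g was 0.62 for the 11 genes with it and 0.59 for the 15 without it, values given as a description.

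A difference between the groups was not detected in any antiviral gene, which does not show that the groups were alike. None of the 35 passed an adjusted p of 0.05 in limma with Benjamini-Hochberg adjustment over all genes, and the share of all 18128 genes that did was 0.0%. Their adjusted p-values ran from 0.587 to 0.999, and the lowest over all genes was 0.461. At an unadjusted p under 0.05 the count was also 0 of 35, where all genes gave 8.56% (4.22% higher and 4.34% lower with maslinic acid). The groups overlapped in every one of the 35, and 1.38% of all genes had groups that did not overlap. The mean was higher with maslinic acid in 32 of 35 genes, where 47.9% of all genes were, and lower in 3 of 35, where 48.3% of all genes were. The median g was 0.62, against 0.0 over all genes. That count rests on the same 10 mice for each gene and does not stand for 35 observations. It also depended on scaling, and after quantile normalization 16 of 35 had a higher mean, with 29.3% of all genes. With each array centred on its median, 22 of 35 were higher, with 14.9% of all genes. Without vehicle replicates 3 and 5 it was 24 of 35, with 46.7% of all genes, and the median g was 0.26. Those 2 mice had the lowest mean z over the 35 genes in the vehicle group (-0.66 and -0.83). Leaving them out therefore raises the vehicle mean of that score, so this alternative is not independent of the antiviral values. The 3 alternatives are named beside the genes below as quantile normalization, centring and the smaller vehicle group. There, 3 values of g joined in a row stand for them in that order. Any count of genes with a higher mean under them is read beside 29.3%, 14.9% and 46.7% of all genes. Every 95% interval of g included 0. The precision of 5 arrays per group left wide limits, and the upper limit exceeded 2 for 8 genes.

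**Figure D1:**
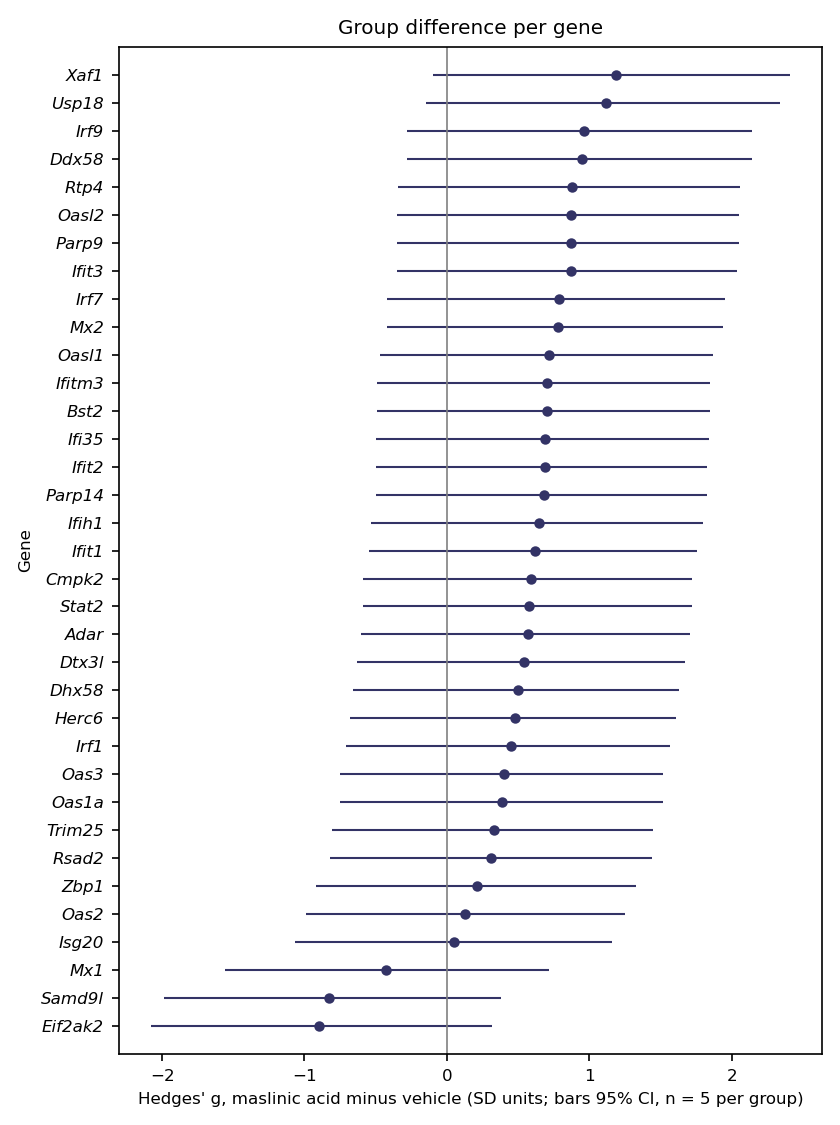
Hedges' g of each of the 35 genes (horizontal axis, in SD within groups, maslinic acid minus vehicle), with bars for the 95% interval and 5 mice per group. Points run from -0.9 for Eif2ak2 to 1.19 for Xaf1, 32 lie to the right of 0, and every bar crosses 0.

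Sensors come first in the pathway. RIG-I (gene Ddx58) and MDA5 (Ifih1) recognise viral double-stranded RNA in the cytoplasm, and Dhx58 encodes their regulator LGP2. In Ddx58 the z-scores were 0.82, 0.1, -1.54, 0.01 and -1.81 in vehicle replicates 1 to 5, and 0.88, -0.31, 0.35, 1.28 and 0.21 in maslinic acid replicates 1 to 5. The low mice were vehicle replicates 3 and 5, and the other 3 vehicle mice lay within the maslinic acid range. Its g was 0.95 (95% interval -0.28 to 2.14; limma adjusted p = 0.634; exact permutation p = 0.151, two-sided), and 0.29, 0.91 and 0.26 under the 3 alternatives. For Ifih1 g was 0.65 (-0.03, -0.15 and 0.32) and for Dhx58 0.5 (-0.22, 0.37 and -0.11), so that both turned below 0 in 2 of the 3. Zbp1, the sensor of Z-form nucleic acid that can trigger necroptosis, had a g of 0.21 (0.5, 0.12 and 0.35). Of the 5 sensors 4 had a higher mean, and 2, 3 and 3 under the alternatives.

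Eif2ak2, which encodes the kinase PKR that halts translation on binding double-stranded RNA, was the sensor with a lower mean. Its z-scores were 0.46, 0.87, -0.14, 0.46 and 0.66 in the vehicle mice and 1.67, -1.15, -1.35, -0.34 and -1.15 in the maslinic acid mice, in replicate order. Maslinic acid replicate 1 was the highest of all 10, while the other 4 treated mice were below every vehicle mouse. The g was -0.9 (95% interval -2.08 to 0.32; limma adjusted p = 0.649; exact permutation p = 0.183). Without maslinic acid replicate 1, the treated mouse that breaks this order, the g was -3.18 and the groups did not overlap, still short of the adjusted threshold. The 3 alternatives gave -0.27, -0.46 and -0.89. The deposited values of this gene took only 8 distinct values within a range of 1.5e-05, so gaps between its mice are close to rounding. Its other probe sets had g values of -1.65 and -0.04.

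Among the transcription factors, IRF9 is the DNA-binding part of ISGF3 and STAT2 its activating part. IRF7 is the factor that amplifies interferon alpha production, and IRF1 answers mainly to interferon gamma. The Irf9 z-scores were -0.15, 0.17, -0.33, 0.12 and -2.24 with vehicle and 1.33, -0.31, 0.29, 1.35 and -0.24 with maslinic acid. Replicates 1 and 4 of the treated group stood at the top, vehicle replicate 5 stood alone at the bottom, and the other 7 mice lay close together. This gave a g of 0.96 (95% interval -0.28 to 2.14; limma adjusted p = 0.632; exact permutation p = 0.151), and -0.43, 0.32 and 0.56 under the 3 alternatives.

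Irf7 read 0.06, -0.33, -1.56, 0.98 and -1.23 in the vehicle mice and 0.97, -0.79, -0.18, 1.38 and 0.69 in the maslinic acid mice. Here the highest vehicle mouse, replicate 4, lay just above the second highest treated mouse, and the lowest mice were again vehicle 3 and 5. The g of 0.79 (95% interval -0.42 to 1.95; limma adjusted p = 0.675; exact permutation p = 0.206) kept its size under both scalings (0.8 and 0.79) but was 0.19 with the smaller vehicle group, which leaves out those low mice. In Stat2 the z-scores were 0.65, 0.28, -1.07, 0.37 and -1.84 with vehicle and 1.14, -0.86, 0.74, 1.03 and -0.44 with maslinic acid. Vehicle replicate 5 was lowest and treated replicate 1 highest, with a g of 0.58 (95% interval -0.59 to 1.72; limma adjusted p = 0.759; exact permutation p = 0.341) and 0.75, 0.54 and -0.13 under the alternatives. Irf1 had a g of 0.45 (-0.57, 0.25 and -0.09). All 4 factors had a higher mean, also after centring (14.9% of all genes), and 0 of 4 passed the test. Lower were 2 of 4 after quantile normalization (Irf9 and Irf1) and 2 of 4 with the smaller vehicle group (Stat2 and Irf1).

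The largest group holds the proteins that bind, make signals from or cut RNA. The Ifit proteins grip viral RNA that lacks the cap marks of the host. The Oas enzymes make 2'-5'-linked oligoadenylate, which activates RNase L, Isg20 is an exonuclease, and Adar edits adenosine in double-stranded RNA. All 10 had a higher mean with maslinic acid (47.9% of all genes did) and 0 of 10 passed, with a median g of 0.6. This direction was not kept, since 4 of 10 were higher after quantile normalization (29.3% of all genes), 7 after centring (14.9%) and 6 with the smaller vehicle group (46.7%).

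Ifit3 had the widest range of the 35 in the deposited values, 0.00812, and its group means differed by 0.00222 on that scale. Its z-scores were 1.14, -1.53, -1.4, -0.51 and 0.05 in the vehicle mice and 0.26, 0.07, 1.74, -0.04 and 0.21 in the maslinic acid mice. Treated replicate 3 stood far above the other 4 treated mice, which lay between -0.04 and 0.26, and vehicle replicate 1 was second. The g was 0.87 (95% interval -0.35 to 2.04; limma adjusted p = 0.658; exact permutation p = 0.175), and 0.47, 0.86 and 0.66 under the 3 alternatives. Ifit1 read 0.76, -1.46, -1.37, -0.25 and 0.61 with vehicle and 0.5, -0.71, 1.76, 0.31 and -0.16 with maslinic acid, the same mice at the top and the same mice, vehicle 2 and 3, at the bottom. Its g was 0.62 (95% interval -0.55 to 1.76; limma adjusted p = 0.739; exact permutation p = 0.317), and the alternatives gave 0.4, 0.61 and 0.58. Ifit2, with a g of 0.69 (-0.91, 0.02 and 0.72) and 8 distinct values, also peaked in treated replicate 3 and was lowest in vehicle replicate 2. These 3 genes lie together on chromosome 19, and Ifit2 and Ifit3 are direct neighbours in the RefSeq order.

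The oligoadenylate synthetases did not share that peak. Oas1a, Oas2 and Oas3, which lie in 1 cluster on chromosome 5, had z-scores of -1.13, -0.5 and -1.41 in treated replicate 3, and 1.21, 1.31 and 1.77 in treated replicate 1. Their g values were 0.39, 0.13 and 0.4, and the alternatives gave 0.12, 0.3 and -0.01 for Oas1a, -1.23, -0.34 and -0.11 for Oas2 and -0.39, -0.34 and 0.32 for Oas3. Oasl2, a relative of this family and a direct neighbour of Oasl1, read 0.45, -0.45, -1.33, 0.6 and -1.52 in the vehicle mice and 1.15, -0.96, 0.38, 1.25 and 0.44 in the maslinic acid mice. Treated replicates 4 and 1 were highest and vehicle 5 and 3 lowest, with a g of 0.87 (95% interval -0.35 to 2.05; limma adjusted p = 0.657; exact permutation p = 0.151) and 0.5, 0.88 and 0.28 under the alternatives. The g was 0.72 for Oasl1 (-0.1, 0.44 and 0), 0.57 for Adar (-0.74, 0.05 and -0.05) and 0.05 for Isg20 (-0.24, -0.1 and 0.23). Probes against members of the Ifit and Oas families can bind near-identical copies, and how far they did was not tested.

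Usp18 removes ISG15 from proteins and blocks the interferon receptor, and Herc6 is the ligase that attaches ISG15 in the mouse. In Usp18 the z-scores were 0.23, -0.61, -1.28, 0.46 and -1.51 with vehicle and 1.08, -0.58, 0.57, 1.62 and 0.02 with maslinic acid. Treated replicates 4 and 1 were the highest 2 mice, vehicle 5 and 3 the lowest, and the remaining mice of both groups overlapped. The g of 1.12 (95% interval -0.15 to 2.34; limma adjusted p = 0.601; exact permutation p = 0.0952) was the second largest of the 35, and 0.46, 1.16 and 0.58 under the 3 alternatives. Herc6 read 0.22, -1.98, -0.27, -0.27 and 0.95 in the vehicle mice and -0.02, -1, 0.95, 1.44 and -0.02 in the maslinic acid mice. It had the smallest range of the 35 (1.4e-05, in 7 distinct values), and its highest mice came from both groups. Its g was 0.48 (95% interval -0.68 to 1.61; limma adjusted p = 0.81; exact permutation p = 0.476), and the alternatives gave 0.17, -0.37 and 0.8.

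The next effectors act on membranes, viral particles or nucleotides. Mx proteins are dynamin-like GTPases that trap viral nucleocapsids, tetherin (Bst2) holds budding virions to the cell, Ifitm3 stops viral fusion in endosomes, viperin (Rsad2) makes a chain-terminating nucleotide from CTP, and Cmpk2 phosphorylates nucleotides in mitochondria. RefSeq's C57BL/6J assembly lists both Mx1 and Mx2 as transcribed pseudogenes. Their state in DBA/1J was not analysed here.

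Mx2 read -0.02, -0.09, -1.31, 0.06 and -0.7 in the vehicle mice and 0.37, -1.39, 1.97, 0.9 and 0.21 in the maslinic acid mice. Its highest and lowest mice were both treated, replicates 3 and 2, and the g was 0.78 (95% interval -0.42 to 1.94; limma adjusted p = 0.682; exact permutation p = 0.214), or 0.02, -0.29 and 0.37 under the alternatives. For Mx1 the z-scores were 0.38, -0.76, 2.02, 0.08 and -0.5 with vehicle and 0.44, -1.41, 0.78, 0.04 and -1.07 with maslinic acid. Vehicle replicate 3, the second lowest mouse for Mx2, was the highest for Mx1. With a g of -0.43 (95% interval -1.56 to 0.72; limma adjusted p = 0.821; exact permutation p = 0.484), Mx1 was 1 of 3 genes with a lower mean. The alternatives gave 0.04, -0.52 and -0.15. Their mean levels were 6.7 for Mx1 and 6.6 for Mx2.

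Ifitm3 had a mean level of 12.03. Its z-scores were 0.5, 0.53, -2.65, 0.35 and -0.62 in the vehicle mice and 0.57, 0.18, 0.48, 0.58 and 0.07 in the maslinic acid mice. Vehicle replicate 3 lay far below all others, and vehicle replicates 1 and 2 lay close to the treated replicates 1 and 4. The g was 0.7 (95% interval -0.49 to 1.85; limma adjusted p = 0.705; exact permutation p = 0.31), 0.78 after centring and -0.35 with the smaller vehicle group. Bst2 had the same lowest mouse, at -2.51, and a g of 0.7 (0.5, 0.71 and -0.26).

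Rsad2 read -0.48, -0.59, 1.4, 0.25 and -1.48 with vehicle and 1.22, -1.07, -0.62, 1.05 and 0.33 with maslinic acid. Here vehicle replicate 3 was the highest mouse, ahead of treated replicates 1 and 4. The g was 0.31 (95% interval -0.82 to 1.44; limma adjusted p = 0.87; exact permutation p = 0.571), and 0.38, 0.23 and 0.46 under the alternatives. Cmpk2, the direct neighbour on chromosome 12, had a g of 0.59 (0.27, 0.51 and 0.65) and vehicle replicate 5 at the bottom, as Rsad2 did. Of these 6 effectors 5 had a higher mean, 4 after centring and 3 with the smaller vehicle group. After quantile normalization it was again 5, with Mx1 above 0 and no value for Ifitm3.

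Parp9 and Dtx3l form a complex that ADP-ribosylates and ubiquitylates proteins, Parp14 is a related enzyme, and Trim25 ubiquitylates RIG-I. Parp14, Dtx3l and Parp9 are neighbours on chromosome 16. The Parp9 z-scores were 0.63, -0.18, -1.56, -0.44 and -0.7 in the vehicle mice and 0.93, -0.96, 1.15, 1.49 and -0.36 in the maslinic acid mice. Treated replicates 4, 3 and 1 were highest and vehicle replicate 3 lowest, with a g of 0.87 (95% interval -0.35 to 2.05; limma adjusted p = 0.657; exact permutation p = 0.167). Under both scalings the sign was the opposite, with -0.99, -0.18 and 0.43 in the 3 alternatives. In Parp14 they were 0.12, -0.27, -0.78, 0.57 and -1.48 with vehicle and 1.36, -1.33, 0.78, 1.23 and -0.2 with maslinic acid. Treated replicates 1 and 4 were again at the top, vehicle 5 and treated 2 at the bottom, and the g was 0.68 (95% interval -0.5 to 1.83; limma adjusted p = 0.713; exact permutation p = 0.246) and 0.12, 0.55 and 0.21 under the alternatives. The g was 0.54 for Dtx3l (-1.4, 0 and 0.59) and 0.33 for Trim25 (-0.83, 0.08 and 0.02), whose lowest mouse was vehicle replicate 5 at -1.91. All 4 had a higher mean, and again all 4 with the smaller vehicle group, but 1 of 4 after quantile normalization and 2 of 4 after centring.

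Of the 4 remaining genes, Xaf1 promotes cell death by opposing the inhibitor XIAP and Rtp4 helps receptors to the cell surface. Xaf1 had the largest g of all 35. Its z-scores were 0.85, -0.85, -1.57, 0.17 and -1.41 in the vehicle mice and 1.06, -0.45, 0.56, 1.05 and 0.59 in the maslinic acid mice. Vehicle replicates 3, 5 and 2 were the 3 lowest mice, while vehicle replicates 1 and 4 lay within the treated range. The g was 1.19 (95% interval -0.1 to 2.41; limma unadjusted p = 0.0633, adjusted p = 0.587; exact permutation p = 0.0714), and -1.21, 1.15 and 0.62 under the 3 alternatives. Rtp4 read 0.05, -0.7, -2.03, 0.58 and -0.17 with vehicle and 0.98, -0.79, 0.4, 1.51 and 0.18 with maslinic acid. Treated replicate 4 was highest and vehicle replicate 3 lowest, with a g of 0.88 (95% interval -0.34 to 2.06; limma adjusted p = 0.653; exact permutation p = 0.167), and the sign was the opposite under both scalings (-0.33, -0.19 and 0.52 in the 3 alternatives).

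Ifi35 had a g of 0.69 (-0.57, -0.31 and 0.25). Samd9l, a restriction factor that blocks translation, had a g of -0.83 (95% interval -1.99 to 0.38; limma adjusted p = 0.667; exact permutation p = 0.246). Vehicle replicates 3 and 5 were its highest mice, at 2.02 and 1.53, and the other 8 lay at or below 0.07. Its g was -0.57, -0.67 and 0.07 under the 3 alternatives. In this set of 4 genes 3 had a higher mean, and 0, 1 and 4 under the alternatives.

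**Figure D2:**
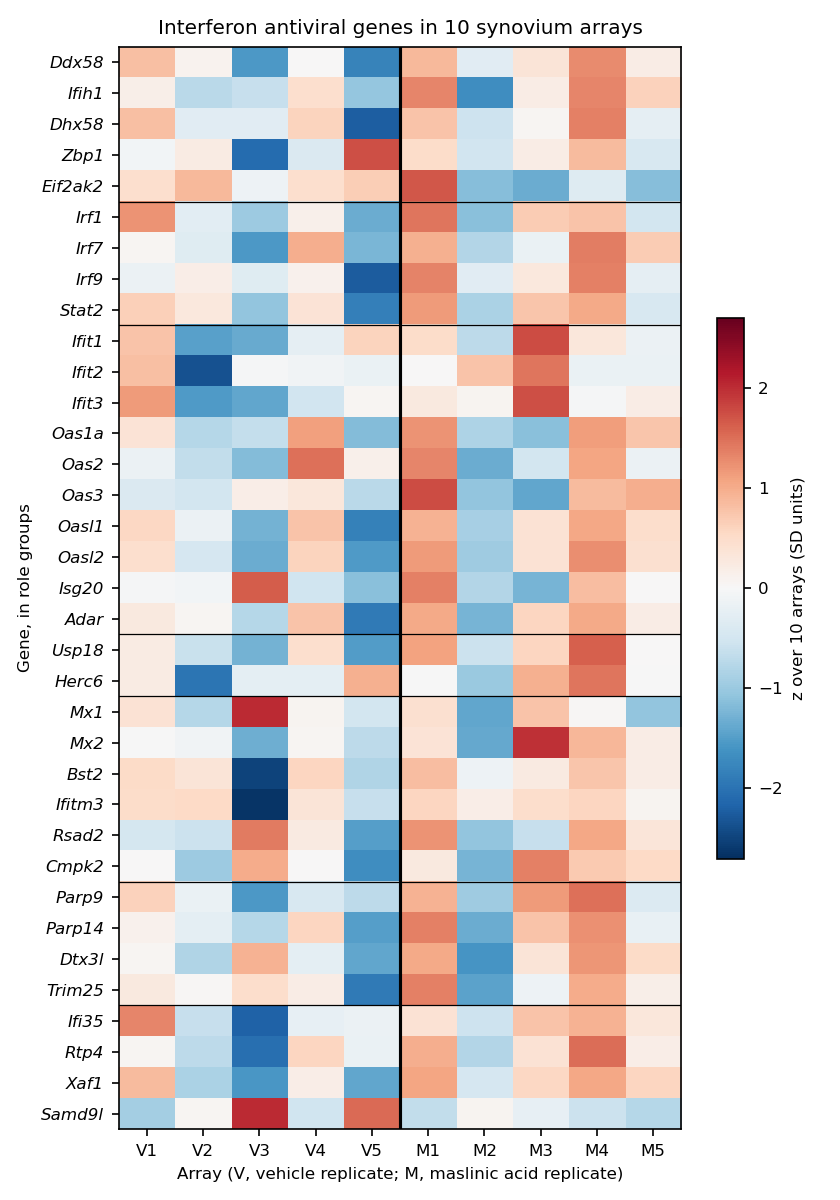
z-score of each of the 35 genes (rows, ordered by role, thin lines between roles) on each of the 10 arrays (columns, vehicle replicates V1 to V5 left of the thick line and maslinic acid replicates M1 to M5 right of it), from blue (low) to red (high) in SD of that gene. M1 and M4 are red in most rows and M2 and V5 blue, while Ifit1, Ifit2 and Ifit3 are reddest in M3.

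The mice differed from each other in these genes within both groups. Treated replicate 1 was among the 3 highest arrays in 29 of 35 genes (82.9%), where it was in 22.5% of all genes, and treated replicate 4 likewise in 29, where it was in 26.2%. At the other end, treated replicate 2 was among the 3 lowest in 29 genes (82.9%; all genes 33.3%), vehicle replicate 5 in 25 (71.4%; all genes 39.5%) and vehicle replicate 3 in 21 (60.0%; all genes 36.1%). Ties took their average rank. The treated group thus held mice from both ends of the order. Both high mice were among the 3 highest together in 26 genes, and in 7.35% of all genes. The 9 genes without that pair were Eif2ak2, Ifit1, Ifit2, Ifit3, Herc6, Mx1, Cmpk2, Ifi35 and Samd9l.

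**Figure D3:**
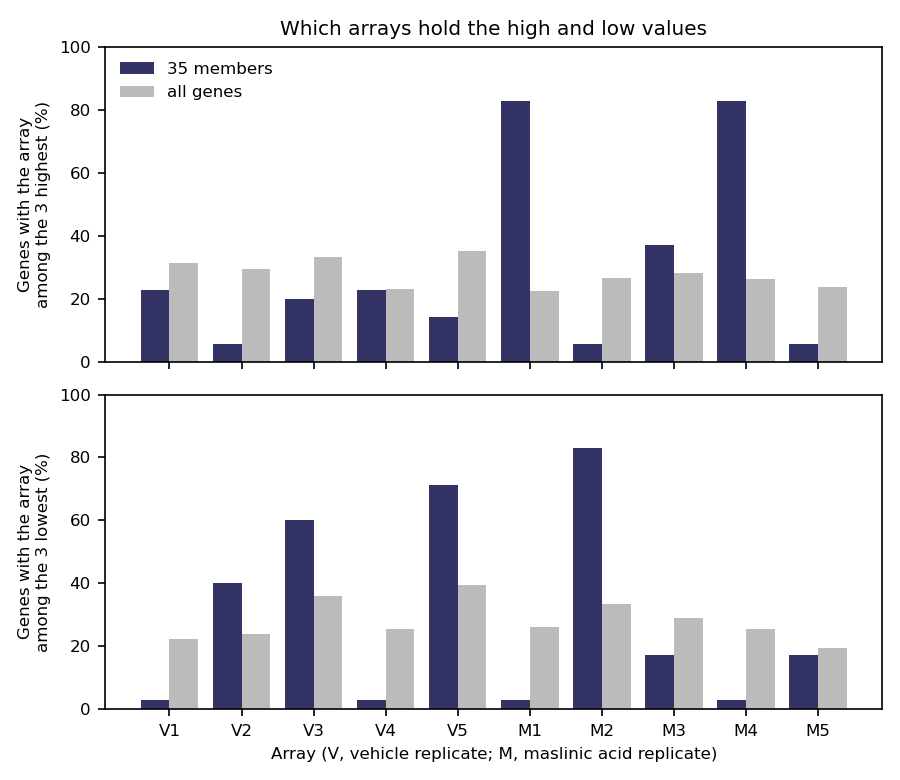
Share of genes (%) for which each array is among the 3 highest (upper panel) or the 3 lowest (lower panel) of the 10 arrays, for the 35 antiviral genes (dark bars) and all genes (grey bars). The dark bars reach 82.9% for M1 and M4 in the upper panel and for M2 in the lower one, while no grey bar exceeds 39.5%.

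The mean z over the 35 genes put this in 1 number per mouse. It was 0.33, -0.44, -0.66, 0.23 and -0.83 in vehicle replicates 1 to 5 (mean -0.275 ± 0.524, SD, n = 5) and 0.88, -0.8, 0.35, 0.89 and 0.05 in the maslinic acid mice (mean 0.275 ± 0.699, SD, n = 5). The difference of 0.55 was smaller than the SD of the treated group and slightly larger than that of the vehicle group, which is a description and no test. Treated replicate 2 lay below 4 of the 5 vehicle mice. The score differed by -0.143 after quantile normalization and by 0.225 after centring. It differed by 0.265 without vehicle replicates 3 and 5, the 2 vehicle mice of lowest score. Scaling also bore on the pattern between mice. After quantile normalization, treated replicates 1 and 4 were among the 3 highest in 11 and 12 of 34 genes (32.4% and 35.3%), with 11.0% and 22.9% of all genes. After centring, the figures were 10 and 26 of 35 (28.6% and 74.3%), with 2.77% and 13.7% of all genes. Treated replicate 2 was among the 3 lowest in 24 of 34 (70.6%; all genes 35.4%) and 17 of 35 (48.6%; all genes 6.22%), and vehicle replicate 5 in 14 (41.2%; all genes 42.0%) and 20 (57.1%; all genes 16.1%). The counts for vehicle replicate 3 moved along with those of all genes. After quantile normalization it was among the 3 lowest in 7 of 34 (20.6%, all genes 12.2%) and the 3 highest in 15 (44.1%, all genes 59.1%). After centring it was among the 3 lowest in 11 of 35 (31.4%, all genes 5.58%) and the 3 highest in 22 (62.9%, all genes 90.5%).

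Further probe sets of the same genes gave a second reading of the same RNA. In all, 58 probe sets name 1 of the 35 genes alone, and 47 of them had a higher mean with maslinic acid. Of all genes, read by their chosen probe set, 47.9% did. Of the 22 not chosen and with a difference, 17 had the sign of the chosen one and 5 the opposite sign, in Cmpk2, Ddx58, Dhx58, Ifi35 and Xaf1. Treated replicates 1 and 4 were among their 3 highest arrays in 16 (72.7%) and 17 (77.3%) of the 22, and treated replicate 2 among their 3 lowest in 17 (77.3%). Over all genes, by their chosen probe set, these shares were 22.5%, 26.2% and 33.3%. In limma over all probe sets, 0 of the 58 passed, with a lowest adjusted p of 0.488.

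Upstream of these genes stand the interferons themselves. Of 18 type I ligands listed, 9 had their own probe set, 4 with a higher and 5 with a lower mean, and 0 passed at either threshold. Ifnb1, the interferon beta gene, had a level of 5.93, and only 9.8% of all genes had a lower one. It took 6 distinct values over the 10 arrays, within a range of 5e-06, so its z-scores are close to rounding. Its z-scores were 1.46, 0.29, 0.87, -1.46 and 0.87 with vehicle and -0.29, -0.87, -0.87, 0.87 and -0.87 with maslinic acid, with a g of -0.77 (limma adjusted p = 0.703; -0.41 after centring and -0.42 with the smaller vehicle group), and the high antiviral mice, treated 1 and 4, did not share a direction in it. The lower mean of Ifnz (g -0.8) came with 1 mouse, vehicle replicate 5, at 2.77. Apart from Ifnz, the ligands ranged over at most 1.4e-05. Whether ligand RNA followed the antiviral pattern therefore cannot be read from these values.

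The receptor list had 4 genes measured, 2 higher and 2 lower. Tyk2, a receptor kinase, was the 1 gene with an unadjusted p under 0.05, lower with maslinic acid (4.34% of all genes). Its g was -1.28 (limma adjusted p = 0.582), and -0.06, -0.53 and -2.28 under the 3 alternatives. The chains Ifnar1 and Ifnar2 had g values of -0.48 (-2.01, -0.56 and -1.57) and 0.16 (0.63, -0.39 and -0.58). Among 15 measured genes of sensing and induction, 9 were higher and 6 lower. An unadjusted p under 0.05 was found for 2, both higher (4.22% of all genes). The 9 became 4, 2 and 6 under the alternatives, where 29.3%, 14.9% and 46.7% of all genes were higher. Ticam1, the adaptor that carries the lipopolysaccharide signal to IRF3, read 0.37, -0.78, -1.7, -0.78 and -1.01 in the vehicle mice and 0.83, 0.14, 0.83, 0.83 and 1.29 in the maslinic acid mice. Only vehicle replicate 1 reached into the treated range, with a g of 2.35 (95% interval 0.72 to 3.9; limma adjusted p = 0.505; exact permutation p = 0.0159), but the gene took 7 distinct values and its g was -0.4, -0.32 and 2.01 under the alternatives.

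Tlr3, the endosomal sensor of double-stranded RNA that signals through the same adaptor, read -0.69, -0.26, -1.37, -1.11 and 0.07 with vehicle and 0.1, 0.69, 1.86, -0.39 and 1.11 with maslinic acid. Treated replicates 3 and 5 were highest, the g was 1.63 (95% interval 0.23 to 2.96; limma adjusted p = 0.534; exact permutation p = 0.0317), and it was -0.05, 0.08 and 1.56 under the alternatives. Irf3 had a g of 0.14 (-0.27, -0.46 and -1.46). Of 8 measured feedback inhibitors 5 were higher and 3 lower, with none past either threshold. Under the alternatives 2, 2 and 3 were higher, with 29.3%, 14.9% and 46.7% of all genes. Pias1, an inhibitor of STAT signalling, had a g of 1.11, but -1.02, -0.3 and 0.66 under the alternatives. Nlrc5, which also drives MHC class I genes, had a g of 1.0 (0.28, 0.96 and 0.5).

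Interferon gamma acts through its own receptor and shares targets with type I interferon. Of 14 genes of its response 8 were higher and 6 lower. The 8 became 7, 6 and 7 under the alternatives, where 29.3%, 14.9% and 46.7% of all genes were higher. At an unadjusted p under 0.05, 2 were higher and 1 lower, where all genes gave 4.22% and 4.34%. Ifngr2, the signalling chain of that receptor, had the lowest p of the pathway lists. Its z-scores were 0.4, 1.41, -0.02, 0.98 and 1.36 in the vehicle mice and -0.39, -0.5, -0.76, -1.24 and -1.24 in the maslinic acid mice. Every treated mouse lay below every vehicle mouse, with a g of -2.86 (95% interval -4.6 to -1.05; exact permutation p = 0.00794, the smallest the design allows), yet the limma adjusted p was 0.461. The alternatives gave -0.75, -0.82 and -3.49. The GTPase gene Irgm1 had a g of 1.35 (limma adjusted p = 0.574) and -1.13, 1.25 and 0.85 under the alternatives. The g was 0.93 for Cxcl10 (0.97, 0.94 and 0.44), a chemokine of both interferons, and -0.36 for Ifng. The values of Ifng are also close to rounding, with 5 distinct values within a range of 5e-06.

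A further list of 35 interferon-stimulated genes had 32 measured, 18 higher and 12 lower, with a median g of 0.19. The 18 became 11, 12 and 15 under the alternatives, where 29.3%, 14.9% and 46.7% of all genes were higher. Ifi204, a DNA sensor of the HIN-200 family, was the 1 with an unadjusted p under 0.05, higher with maslinic acid (4.22% of all genes). Its g was 1.47 (95% interval 0.11 to 2.76, limma adjusted p = 0.55), and 2.3, 1.56 and 1.88 under the alternatives. Slfn1 had a g of -1.09 (-0.81, -0.94 and -0.89). Treated replicates 1 and 4 were among the 3 highest arrays in 20 and 19 of the 32 (62.5% and 59.4%, all genes 22.5% and 26.2%). Treated replicate 2 was among the 3 lowest in 19 (59.4%, all genes 33.3%). In the interferon gamma list those counts were 9, 10 and 10 of 14 (64.3%, 71.4% and 71.4%). Vehicle replicate 3, low in many antiviral genes, was among the 3 highest in 14 of the 32 (43.8%, all genes 33.3%). It was among the 3 lowest in 13 (40.6%, all genes 36.1%). Both lists were read in the deposited values alone.

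**Figure D4:**
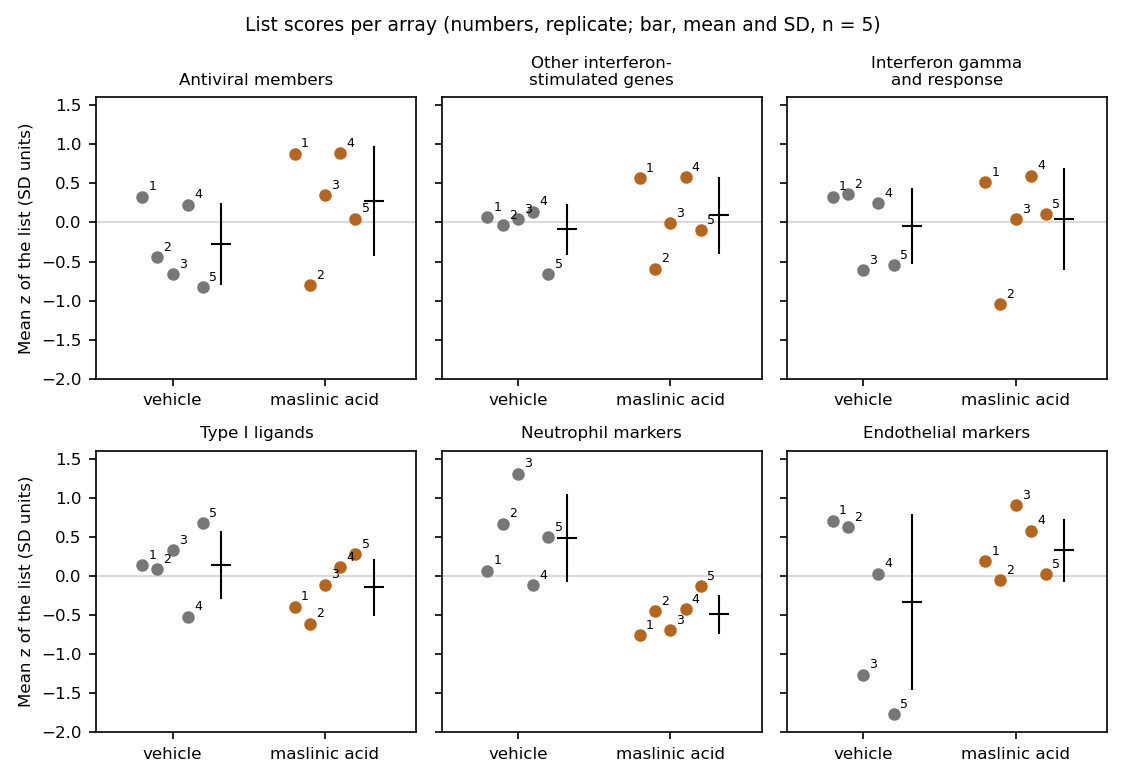
Mean z per mouse (vertical axis, SD units; numbers give the replicate, bars the mean and SD of 5 mice) for the 35 antiviral genes, 3 other pathway lists and 2 marker lists. Treated mice 1 and 4 are the 2 highest and treated mouse 2 is among the 2 lowest in the first 3 panels, while the ligands show another order and the neutrophil score of every treated mouse is below 0. Values of most ligands, and of S100a8 and S100a9 among the neutrophil markers, are close to rounding.

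Markers of other cell types are given beside these values. All 7 neutrophil markers had a lower mean with maslinic acid (48.3% of all genes did), 3 of them at an unadjusted p under 0.05 (4.34% of all genes) and 0 after adjustment. Their score ran from -0.12 to 1.31 with vehicle and from -0.76 to -0.13 with maslinic acid. After quantile normalization 2 of the 7 were lower, 1 was higher and the others had no difference. In the deposited values S100a8 and S100a9 took only 2 distinct values each, 1e-06 apart, which is the last decimal. The group means of Ngp differed by -2.2e-06. The count of 7 and the neutrophil score therefore rest in part on values at the limit of rounding. All 4 platelet markers were lower, 2 at an unadjusted p under 0.05 (score -1.29 to 0.05 with maslinic acid and -0.4 to 1.62 with vehicle). Bone cell markers were higher, in 2 of 2 for osteoblasts and 3 of 3 for osteoclasts, and so were 4 of 4 for adipocytes. Each of these lists had 1 at an unadjusted p under 0.05 (4.22% of all genes). Quantile normalization left 1 of 2 osteoblast, 1 of 3 osteoclast and 3 of 4 adipocyte markers higher, with 29.3% of all genes. Centring and the smaller vehicle group kept all of them higher. After quantile normalization 0 of these platelet, bone cell and adipocyte markers had an unadjusted p under 0.05, and likewise 0 with the smaller vehicle group. Centring gave 3 such platelet markers and 1 in each of the other lists. All 4 endothelial markers had a higher mean, and their score was lowest in vehicle replicates 3 and 5, which were also low in many antiviral genes. Of the endothelial 4, 2 were higher under each of the 3 alternatives. All 8 synovial lining and fibroblast markers had a higher mean, and 6, 6 and 3 under the alternatives. All 6 muscle markers and all 4 of cartilage were higher as well, with 0 past either threshold. After quantile normalization 2 of the 6 muscle markers were higher and all 4 of cartilage. Centring and the smaller vehicle group kept both lists higher in full. Of 6 macrophage markers 4 were higher, and 4, 4 and 2 under the alternatives. Of 5 T and NK cell markers 4 were lower, and 4, 5 and 4 under the alternatives. The monocyte and B cell lists each had 1 marker higher and 1 lower. The lower monocyte marker, Ccr2, had a g of -1.33 (limma unadjusted p = 0.0417, adjusted p = 0.576). Plasmacytoid dendritic cells, known as strong producers of type I interferon, had 2 of 5 markers higher and 3 lower, with a level of 6.84 for Siglech. The part of these cells in the antiviral values was not tested.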

How the data were processed

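Each of the 10 arrays is 1 mouse, with group and replicate number from the sample titles. No batch is recorded in the labels. The deposited values are treated as a score of unsettled scale: R 3.2.1 was used, per the submitters' processing notes, while the background correction and normalization were not given in the sources used here. Log2 values had been foreseen in the design. With 6 decimals, rounding is close to the spread of many probe sets, and 225 of 39993 held 1 value on all arrays. Of the probe sets, 34202 named 1 gene in the platform annotation, 931 several and 4860 were unnamed here. All per-sample columns were used. Both z-scores and g depend on how the authors' method treated differences between arrays.

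The linear model of limma 3.58.1, run in R 4.3.3 with moderated variances, was fitted to 18128 genes, vehicle against maslinic acid, two-sided, with Benjamini-Hochberg adjustment over all genes and a threshold of 0.05 (prior degrees of freedom 0.478). Exact permutation tests enumerated every way to split the 10 arrays into 5 and 5. Intervals of g are 95%, by the noncentral t distribution (scipy 1.17.1). Tables used pandas 2.3.3 and numpy 2.4.6, figures matplotlib 3.10.9. On simulated data of this comparison with 18128 genes and 50 changed at each size, the test found 10% of those shifted by 2 SD, 80% of those by 4 SD and 100% of those by 6 SD and 8 SD, with 2 false calls. Motifs were searched in RefSeq promoters of GRCm38.p6, which held 28 of the 37 genes.

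The genes, the pathway and marker lists and the alternatives were chosen with earlier results of these data known. Every gene with a probe set of its own is named. Values in every mouse are given for the 2 of lowest p in each role, for Ifit1, Mx1, Rsad2, Irf7, Irf9 and Stat2, and for pathway genes of lowest p. Alternatives tried were a replicate block, quantile normalization, centring on array medians, the mean of all probe sets, the probe set of most distinct values, filters on distinct values and on level, trended and robust eBayes, array weights, vehicle replicates 3 and 5 left out, and each array left out.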

Additional observations from a re-analysis of the deposited data

Results flagged for a closer look

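In 3 genes a single mouse lay far from the others of its group, by the gap to its nearest neighbour as a share of the group's range (Dixon's ratio, critical value 0.71 for 5 samples). In Irf9 vehicle replicate 5 was lowest, with a ratio of 0.795, at a z-score of -2.24 where the other vehicle mice lay between -0.33 and 0.17. In Trim25 the same mouse was lowest, with a ratio of 0.822, at -1.91 where the others lay between 0.04 and 0.47. In Ifit3 maslinic acid replicate 3 was highest, with a ratio of 0.829, at 1.74 where the others lay between -0.04 and 0.26. These were 3 of 72 groups examined, and chance gives about 1 in 20.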

How the results depend on the processing

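None of the 35 genes passed the adjusted threshold under any alternative run, with a lowest adjusted p between 0.412 (without vehicle replicate 4) and 0.848 (quantile normalization). Whether the replicate numbers pair the mice was not settled. Correlations of same-numbered deviations were 0.35, -0.389, -0.177, 0.338 and -0.0165 for numbers 1 to 5. Of the 10 arrays, 4 were closest, in the other group, to the array of their own number. The fit with the replicate block gave 2 genes higher at an unadjusted p under 0.05, Usp18 and Xaf1, and 0 after adjustment. Quantile normalization gave 16 genes with a higher mean, a median g of -0.07, a score difference of -0.143 and 1 gene lower at an unadjusted p under 0.05 (Dtx3l), while the median over all genes moved to -0.27. There g turned to -0.03 (Ifih1), -0.22 (Dhx58), -0.57 (Irf1 and Ifi35), -0.43 (Irf9), -0.91 (Ifit2), -1.23 (Oas2), -0.39 (Oas3), -0.1 (Oasl1), -0.24 (Isg20), -0.74 (Adar), 0.04 (Mx1), -0.99 (Parp9), -1.4 (Dtx3l), -0.83 (Trim25), -0.33 (Rtp4), -1.21 (Xaf1), -0.27 (Irf3), -0.4 (Ticam1), -0.05 (Tlr3), -1.02 (Pias1) and -1.13 (Irgm1); Ifitm3 had no value there. Centring gave a median g of 0.23, with -0.39 over all genes, and turned g to -0.15 (Ifih1), -0.34 (Oas2 and Oas3), -0.1 (Isg20), -0.37 (Herc6), -0.29 (Mx2), -0.18 (Parp9), -0.31 (Ifi35), -0.19 (Rtp4), -0.39 (Ifnar2), -0.46 (Irf3), -0.32 (Ticam1) and -0.3 (Pias1). Without vehicle replicates 3 and 5 the median g was 0.26, and g turned to -0.11 (Dhx58 and Oas2), -0.09 (Irf1), -0.13 (Stat2), -0.01 (Oas1a), -0.05 (Adar), -0.26 (Bst2), -0.35 (Ifitm3), 0.07 (Samd9l), -0.58 (Ifnar2) and -1.46 (Irf3). Choosing the probe set of most distinct values gave 1 gene lower at an unadjusted p under 0.05 (Eif2ak2). The g of Irf3 was -0.01 with the mean of all probe sets, and array weights gave -0.53 for it and -0.44 for Ifnar2. The cause was not tested for any of these. Leaving out each array in turn gave 0 to 7 genes higher at an unadjusted p under 0.05 (7 without maslinic acid replicate 2, 4 without vehicle replicate 1, 2 without vehicle replicate 4), 0 to 1 lower and 0 to 1 without overlap (Eif2ak2 without maslinic acid replicate 1, Mx2 without maslinic acid replicate 2), 30 to 32 with a higher mean, a median g of 0.46 to 0.88 and a score difference of 0.391 to 0.826. Over these fits g ran from -0.29 to 0.78 in Zbp1, -0.13 to 0.53 in Oas2, -0.25 to 0.47 in Isg20, -0.05 to 0.81 in Trim25, -0.27 to 0.49 in Irf3, -0.21 to 0.53 in Ifnar2 and -0.57 to 0.08 in Ifng.

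With 5 arrays per group and an unsettled scale, a g of 2 was mostly out of reach of the adjusted test, so its misses do not show that the groups were alike. Rounding limits the genes with fewer distinct values most (5 of the 35).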

Other observations

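Vehicle replicate 3 was not low in every antiviral gene. It was the highest of the 10 mice in Isg20 (z-score 1.64), Mx1 (2.02), Rsad2 (1.4) and Samd9l (2.02), and the lowest in Zbp1 (-2.08), Irf7 (-1.56), Bst2 (-2.51), Ifitm3 (-2.65), Parp9 (-1.56), Ifi35 (-2.18), Rtp4 (-2.03) and Xaf1 (-1.57). Vehicle replicate 2 was the lowest mouse in Herc6 (-1.98), Ifit1 (-1.46), Ifit2 (-2.35) and Ifit3 (-1.53) and in no other of the 35. In 23 of the 35 genes the SD was larger among vehicle mice than among maslinic acid mice, which held for 71.7% of all genes.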
